A study of Mus musculus with 4 samples.

Results

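The Zfp genes are mouse genes named for zinc finger proteins, and here they are the genes whose symbol is Zfp followed by a number. The rule was applied to the authors' deposited table of CD5 high against CD5 low effector T cells, and it found 116 genes among 7244 tested genes that carry a single gene name. All 116 had been tested by the authors, and none was listed at 0 in either group. The cells came from NOD.Foxp3-GFP mice. NOD mice become diabetic through autoimmunity, and the GFP reporter marks cells that express Foxp3, which defines regulatory T cells. Per the labels the mice were 6-9 wks old, the tissue field names islets of the pancreas and spleen, and the titles point to islet cells. Each group has 2 libraries, CD5 high effector T cells and CD5 low effector T cells, and both groups share the strain and the reporter. CD5 is a T cell surface protein, and cells with more of it are held to react more strongly to self. The table holds 1 combined FPKM value for each group, that is, fragments counted per kilobase of transcript and scaled to the mapped total, so no SD, n or depth stands behind a value. No label says that the 2 libraries of a group were taken from different mice, and the authors' p-values may therefore measure technical spread.

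Zinc fingers are small protein folds held by a zinc ion. In the C2H2 type, a pair of cysteines and a pair of histidines hold the zinc, and strings of such fingers joined by a short linker read DNA. Many C2H2 proteins of mammals also carry a KRAB box, which recruits the co-repressor Trim28 (KAP1) and with it the histone methyltransferase Setdb1, and proteins of this kind are known for silencing retroelements and guarding imprinted loci. The KRAB zinc finger genes sit in tandem clusters that arose by duplication. A few genes of the same name encode CCCH fingers, which bind RNA: Zfp36 (tristetraprolin) and its relatives bind AU-rich stretches of cytokine mRNAs and speed their decay, and they restrain T cell activation and thymocyte growth.

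The architecture of each member was read from the coding sequence of a GENCODE M21 transcript (GRCm38), which was found for all 116. A KRAB box with C2H2 fingers was found in 50 members, C2H2 fingers without a KRAB box in 59, CCCH fingers in 3, and none of these in 4. These classes hold for the 1 transcript chosen per gene and for the patterns used, and other transcripts of a gene were not classed. The median number of C2H2 fingers was 11 in the KRAB members (2 to 23) and 6 in the C2H2 members without the box (1 to 33). The coding bases of 1 finger are given for 6 members to show what the name covers. The first 3 are KRAB members with large differences described below (Zfp82 and Zfp946 lower, Zfp948 higher in CD5 high), each shown by its first finger that is followed by the common linker. Capitals mark the codons of the zinc-holding cysteines and histidines, and the last 15 lower-case bases encode the linker.
Zfp82: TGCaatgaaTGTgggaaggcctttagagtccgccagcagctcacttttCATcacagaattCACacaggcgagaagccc
Zfp948: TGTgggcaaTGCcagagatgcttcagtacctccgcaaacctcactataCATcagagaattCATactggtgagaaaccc
Zfp946: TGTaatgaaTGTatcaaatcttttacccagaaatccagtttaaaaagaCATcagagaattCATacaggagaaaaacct
The other 3 are the first CCCH finger of the RNA-binding members, with the codons of 3 cysteines and 1 histidine in capitals.
Zfp36l1: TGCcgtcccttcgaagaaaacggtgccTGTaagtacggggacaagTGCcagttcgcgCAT
Zfp36l2: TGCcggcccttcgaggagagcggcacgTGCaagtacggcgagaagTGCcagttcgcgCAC
Zfp36: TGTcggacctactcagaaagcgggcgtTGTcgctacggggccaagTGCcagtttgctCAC
The fingers of Zfp36l1 and Zfp36l2 share 49 of 60 bases and 17 of 20 encoded residues, and those of Zfp36l1 and Zfp36 share 42 bases and 13 residues. The C2H2 fingers of Zfp82 and Zfp948 share 48 of 78 bases and 14 of 26 residues, those of the linker included.

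No Zfp gene passed the test between CD5 high and CD5 low cells in the authors' deposited table. None of the 116 had a q-value under 0.05, where 0.759% of all tested genes did, and the smallest q of a member was 0.118. At an unadjusted p under 0.05 the authors' deposited table held 12 members, 10.3% of the 116, against 10.3% of all tested genes. A difference of 1.5-fold or more was seen in 15 members, 12.9% of them, against 14.7% of all genes above 0 in both groups. Of the 15, 6 were higher in CD5 high (5.17%, against 7.97% of the tested genes) and 9 were lower (7.76%, against 6.78%). These shares lie near or at the background.

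The values of the Zfp genes were a little lower in CD5 high more often than higher. A lower value in CD5 high was found in 68 members (58.6%, against 50.9% of all tested genes) and a higher one in 48 (41.4%, against 49.1%). The median log2 fold change, CD5 high over CD5 low, was -0.12 over the members and -0.01 over all tested genes with a finite fold. The middle 50% of the members lay between -0.37 and 0.18, and that of all tested genes between -0.24 and 0.24. Of the 12 members at an unadjusted p under 0.05 in the authors' deposited table, 9 were lower in CD5 high (7.76% of the members, against 4.69% of all tested genes) and 3 were higher (2.59%, against 5.59%). These counts are descriptions, since the table gives no value per library with which the family's shift could be tested.

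**Figure D1:**
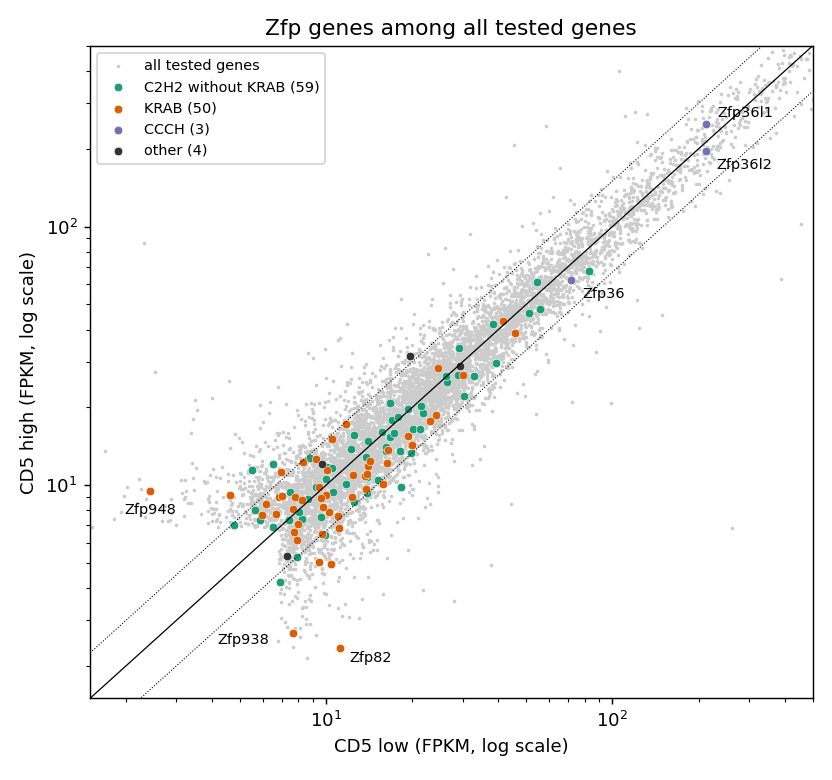
Each point is 1 gene, with the authors' FPKM value in CD5 high upwards and in CD5 low across, both on log scales. Grey points are all tested genes, coloured points the 116 Zfp genes by protein class, the solid line marks equal values and the dotted lines mark 1.5-fold; genes beyond the axes are not drawn. Most Zfp genes sit below 20 FPKM and close to the line, with Zfp82 and Zfp938 farthest below it and Zfp948 farthest above it.

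Most Zfp genes were of modest level. The median over members was 11.6 FPKM in CD5 high and 12.4 FPKM in CD5 low, against 20.5 and 20.2 FPKM over all tested genes, and 91 of 116 members had a mean under 20 FPKM. The table has a floor, since the higher value of each tested gene was 6.82 FPKM or more, and 112 of the 394 protein-coding Zfp symbols in GENCODE M21 are among its tested genes. Of the 116 members, 11 were under that floor in CD5 high only and 11 in CD5 low only. A gene that entered the table through 1 group alone had to differ, so the folds of these 22 are in part set by the floor. Over the other 94 the median log2 fold change was -0.12 as well, with 57 lower and 37 higher. Of these 94, 60.6% were lower, against 51.0% of the 6493 tested genes above the floor in both groups, and 5 reached 1.5-fold (5.32%, against 9.59%).

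The size of the differences followed the level. Among the 45 members under a mean of 10 FPKM, the median absolute log2 fold change was 0.36 (0.39 over all tested genes of that level), 12 reached 1.5-fold (26.7%, against 31.7% of all tested genes of that level), and 23 were lower and 22 higher in CD5 high. Among the 46 members from 10 to 20 FPKM it was 0.32 (0.26 over all), 2 reached 1.5-fold (4.35%, against 14.5%), and 28 were lower (60.9%, against 52.3%). The 15 members from 20 to 40 FPKM had 0.21 (0.22 over all) with 11 lower (73.3%, against 48.6%), and the 10 members from 40 FPKM upwards had 0.19 (0.18 over all) with 6 lower (60%, against 50.8%). Of the 15, 1 reached 1.5-fold (6.67%, against 9.54%), and of the 10 none did (against 7.24%). The median log2 fold change was -0.01 in the scarcest members and -0.20 in the band from 10 to 20 FPKM.

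A pair of CCCH genes, Zfp36l1 and Zfp36l2, were the most abundant members, and none of the 3 CCCH genes passed the test. Zfp36l1 had 249 FPKM in CD5 high and 213 FPKM in CD5 low, a 1.17-fold higher value (q = 0.695 in the authors' deposited table). Zfp36l2 had 196 FPKM in CD5 high and 212 FPKM in CD5 low (q = 0.878 in the authors' deposited table). The founding member Zfp36 had 62.1 FPKM in CD5 high and 71.8 FPKM in CD5 low (q = 0.800 in the authors' deposited table). In both groups Zfp36l1 and Zfp36l2 stood well above every other member, and together the 3 genes held 23.1% of the summed FPKM of all Zfp genes in CD5 high and 21.6% in CD5 low. The non-coding RNA gene Gm26669 overlaps Zfp36l1 on the opposite strand in GENCODE M21, and libraries of this kit do not keep strand, so reads of the pair cannot be told apart.

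The machinery through which CCCH proteins act was likewise near even, and 1 of their known target mRNAs rose in CD5 high. Of 33 tested genes of deadenylation, decapping and the competing RNA-binding proteins, none passed q under 0.05, 16 were higher and 17 lower in CD5 high, with a median log2 fold change of -0.03. Pabpc1, the poly(A)-binding protein, had 419.9 FPKM in CD5 high and 442 FPKM in CD5 low (q = 0.922 in the authors' deposited table). The lowest p of the list was that of Zc3h12d, another CCCH gene and a relative of Regnase-1, with 17.3 FPKM in CD5 high and 9.09 FPKM in CD5 low (p = 0.00155, q = 0.113 in the authors' deposited table). Of 10 tested target mRNAs, 6 were higher and 4 lower in CD5 high, with a median log2 fold change of 0.27. The gene that rose, where 0.759% of all tested genes changed in either direction, was the anti-inflammatory cytokine Il10, with 93.4 FPKM in CD5 high and 31.9 FPKM in CD5 low (q = 0.0110 in the authors' deposited table). Unadjusted p-values under 0.05 were also found for Cdkn1a (27.1 FPKM in CD5 high, 13.6 FPKM in CD5 low), Il21 (19.3 and 12.0 FPKM) and Ifng (98.3 and 69.8 FPKM), each with the higher value in CD5 high, per the authors' deposited table. With Il10 these are 4 of the 10, where 5.59% of all tested genes were higher at that p. The list was chosen with earlier results of these data known, so its share is a description and no test of the CCCH targets. Bcl2 (87.0 FPKM in CD5 high, 101.8 FPKM in CD5 low) and Myc (29.5 and 34.7 FPKM) were among the 4 lower ones. Tnf, the classic target of tristetraprolin, had 17.7 FPKM in CD5 high and 19.3 FPKM in CD5 low (q = 0.943 in the authors' deposited table), and Dusp1 had 308 and 315 FPKM (q = 0.975 in the same table).

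**Figure D2:**
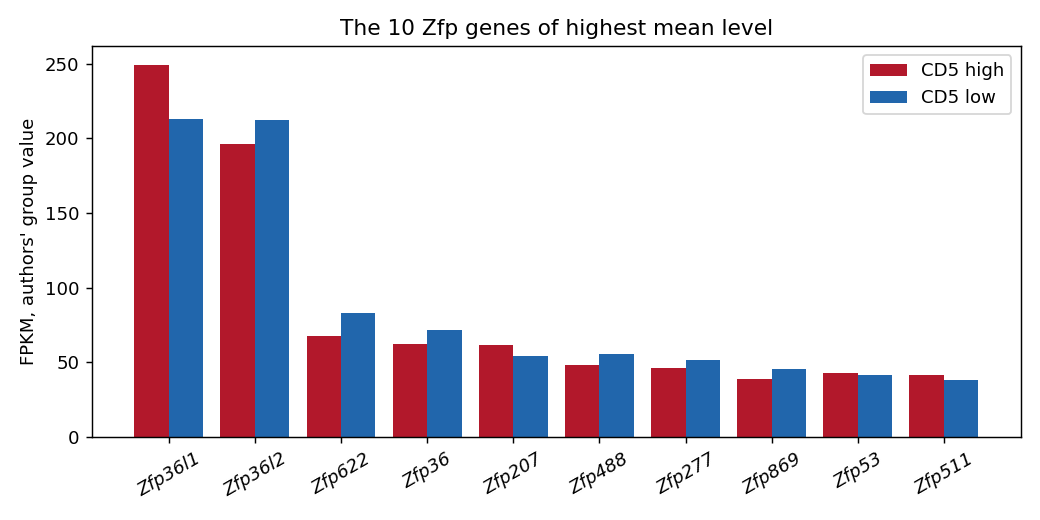
Bars give the authors' FPKM value in CD5 high (red, left) and CD5 low (blue, right) for the 10 Zfp genes of highest mean level. Zfp36l1 and Zfp36l2 stand at 196 to 249 FPKM, all other members at 82.8 FPKM or below, and the pairs of bars differ little.

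The other abundant members have varied roles. Zfp622, which stood above Zfp36 in both groups and whose yeast counterpart matures the large ribosomal subunit, had 67.4 FPKM in CD5 high and 82.8 FPKM in CD5 low (q = 0.638 in the authors' deposited table). Zfp207 (BuGZ), which binds the mitotic checkpoint protein Bub3, had 61.4 FPKM in CD5 high and 54.6 FPKM in CD5 low (q = 0.845 in the authors' deposited table). Next came Zfp488 with 48.1 and 55.7 FPKM, Zfp277 with 46.3 and 51.3 FPKM, Zfp869 with 38.9 and 45.9 FPKM, Zfp53 with 43.1 and 41.6 FPKM and Zfp511 with 41.9 and 38.1 FPKM in CD5 high and CD5 low. The order of these neighbours cannot be read as a difference, since the values carry no error. Of the other RNA-binding members, Zfp598, the ubiquitin ligase that senses collided ribosomes, had 17.9 FPKM in CD5 high and 17.0 FPKM in CD5 low (q = 0.963 in the authors' deposited table). Zfp326, Zfp706 and Zfp106 had 18.4, 19.8 and 13.5 FPKM in CD5 high and 17.8, 19.4 and 16.2 FPKM in CD5 low. Zfp830, needed in the early embryo, had 6.42 FPKM in CD5 high and 9.92 FPKM in CD5 low (q = 0.576 in the authors' deposited table).

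Outside the CCCH class, 5 Zfp genes with a described role in lymphocytes were listed, and 2 of them were tested, with slightly higher values in CD5 high. Zfp91, a ubiquitin ligase of the alternative NF-kB pathway, had 33.8 FPKM in CD5 high and 29.2 FPKM in CD5 low (q = 0.773 in the authors' deposited table). Zfp335, which is required for the maturation of naive T cells, had 9.83 FPKM in CD5 high and 9.20 FPKM in CD5 low (q = 0.949 in the authors' deposited table). Zfp335 overlaps Pcif1 on the opposite strand and shares 20.3% of its 50-base words with other genes. The other 3 of the 5, among them Zfp683 (Hobit), were not among the tested genes.

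Of 15 Zfp genes listed for a role in transcription and chromatin, 9 were tested, and none passed q under 0.05 in the authors' deposited table. Lower values in CD5 high were found in 8 of the 9, where 58.6% of the Zfp members and 50.9% of all tested genes were lower. The list was chosen with earlier results of these data known, so this count is a description. Zfp281, a GC-box binding factor known from pluripotent cells, had 22.1 FPKM in CD5 high and 30.3 FPKM in CD5 low (log2 fold change -0.45, p = 0.0421, q = 0.460 in the authors' deposited table). Its close relative Zfp148 had 15.3 FPKM in CD5 high and 16.7 FPKM in CD5 low (q = 0.884 in the authors' deposited table). Zfp217, a partner of the CoREST and Lsd1 co-repressors, had 13.6 FPKM in CD5 high and 18.2 FPKM in CD5 low (q = 0.562 in the authors' deposited table). Zfp410, known as a dedicated activator of the Chd4 gene, had 10.5 FPKM in CD5 high and 15.2 FPKM in CD5 low (q = 0.603 in the authors' deposited table). Only Zfp143, which binds promoters and chromatin loop anchors, was higher, with 11.7 FPKM in CD5 high and 10.5 FPKM in CD5 low (q = 0.916 in the authors' deposited table). The median log2 fold change of these 9 genes was -0.36. The remaining members were Zfp384 (7.51 and 9.63 FPKM), Zfp451 (5.34 and 7.29 FPKM), Zfp592 (15.9 and 17.2 FPKM) and Zfp644 (20.3 and 21.5 FPKM) in CD5 high and CD5 low.

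Of 6 Zfp genes listed for imprinting or the silencing of retroelements, 3 were tested, all of them KRAB members. These 3 had lower values in CD5 high without passing the test, where 62% of the KRAB members and 50.9% of all tested genes were lower. Zfp445, which guards imprinted loci together with Zfp57, had 18.7 FPKM in CD5 high and 24.2 FPKM in CD5 low (p = 0.0944, q = 0.583 in the authors' deposited table). Zfp932, a silencer of endogenous retroviruses, had 12.2 FPKM in CD5 high and 16.4 FPKM in CD5 low (q = 0.724 in the authors' deposited table), and 55.5% of the 50-base words of its transcript are shared with other genes, of which its paralog Gm15446 shares the most. Zfp809, which recognises the primer binding site of murine leukaemia viruses, had 9.65 FPKM in CD5 high and 13.8 FPKM in CD5 low (q = 0.891 in the authors' deposited table). The authors' table gives Zfp809 the same merged locus as Zfp653 (chromosome 9, 22055460 to 22389206, mm10), and Zfp653 differed in the other direction, with 11.5 FPKM in CD5 high and 5.50 FPKM in CD5 low (q = 0.771 in the authors' deposited table).

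The co-repressor genes on which KRAB proteins depend had values in both directions. Trim28 had 42.0 FPKM in CD5 high and 38.1 FPKM in CD5 low (q = 0.878 in the authors' deposited table), and Setdb1 had 7.61 FPKM in CD5 high and 5.39 FPKM in CD5 low (q = 0.813 in the authors' deposited table). Of 18 tested genes of this machinery 13 were higher and 5 lower in CD5 high, where 49.1% of all tested genes were higher. Their median log2 fold change was 0.06, and this lean was not tested. None passed q under 0.05. The only unadjusted p under 0.05 in the authors' deposited table was that of Morc3, where 10.3% of all tested genes reached that p. Morc3 had 18.4 FPKM in CD5 high and 26.5 FPKM in CD5 low (p = 0.0286, q = 0.408 in the authors' deposited table).

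Of the 12 members at an unadjusted p under 0.05, 7 were scarce in 1 group, and 6 of these are KRAB genes. Zfp82, with 12 fingers, had 2.35 FPKM in CD5 high and 11.2 FPKM in CD5 low, a log2 fold change of -2.26 (p = 0.00175, q = 0.118 in the authors' deposited table). Zfp948, with 15 fingers, differed in the other direction, with 9.51 FPKM in CD5 high and 2.43 FPKM in CD5 low and a log2 fold change of 1.97 (p = 0.0036, q = 0.167 in the authors' deposited table). Both were above the floor of the table in 1 group only. Zfp938 had 2.69 FPKM in CD5 high and 7.65 FPKM in CD5 low (log2 fold change -1.51, q = 0.414 in the authors' deposited table). Zfp946 had 4.95 FPKM in CD5 high and 10.4 FPKM in CD5 low (log2 fold change -1.07, q = 0.352 in the authors' deposited table). Zfp101 had 5.04 FPKM in CD5 high and 9.47 FPKM in CD5 low (log2 fold change -0.91, q = 0.460 in the authors' deposited table). Zfp426 had 9.13 FPKM in CD5 high and 4.61 FPKM in CD5 low (log2 fold change 0.98, q = 0.352 in the authors' deposited table). Zfp507, which has no KRAB box, had 4.21 FPKM in CD5 high and 6.89 FPKM in CD5 low (log2 fold change -0.71, q = 0.408 in the authors' deposited table), and it overlaps a pair of non-coding RNA genes on the other strand. Each of these 7 was under the floor in the group where it was lower.

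The value of Zfp82 may depend on how reads were shared out, which was not tested, and the submitters name no annotation. The transcript of Zfp82 lies at chromosome 7, 30056034 to 30072823 (mm10), and 94.4% of its 50-base words occur in other GENCODE genes. The largest part is in Gm26920, a gene on the same strand whose span also covers the neighbour Zfp566. Zfp566 had 9.05 FPKM in CD5 high and 7.04 FPKM in CD5 low (q = 0.862 in the authors' deposited table). The transcript of Zfp948 (chromosome 17, 21567046 to 21588682) shared only 0.115% of its words, and that of Zfp946 4.07%. Over all members, 23 of 116 shared 10% or more of their words with another gene, and 42 shared none.

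The other 5, Zfp281 among them, were above the floor in both groups and differed less. Zfp292, a protein with 14 fingers and 2698 residues, had 29.6 FPKM in CD5 high and 39.2 FPKM in CD5 low (p = 0.0366, q = 0.440 in the authors' deposited table). Zfp259 had 31.6 FPKM in CD5 high and 19.6 FPKM in CD5 low, the highest level among the higher ones (p = 0.0101, q = 0.291 in the authors' deposited table). Its current name is Zpr1, it has no C2H2 finger by the pattern used, and it encodes a factor that binds elongation factor eEF1A. Zfp866 had 10.1 FPKM in CD5 high and 15.8 FPKM in CD5 low (q = 0.318 in the authors' deposited table), with 12.0% of its words shared. Zfp280d had 13.3 FPKM in CD5 high and 19.8 FPKM in CD5 low (q = 0.400 in the authors' deposited table), and it overlaps the antisense RNA gene BC065403.

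**Figure D3:**
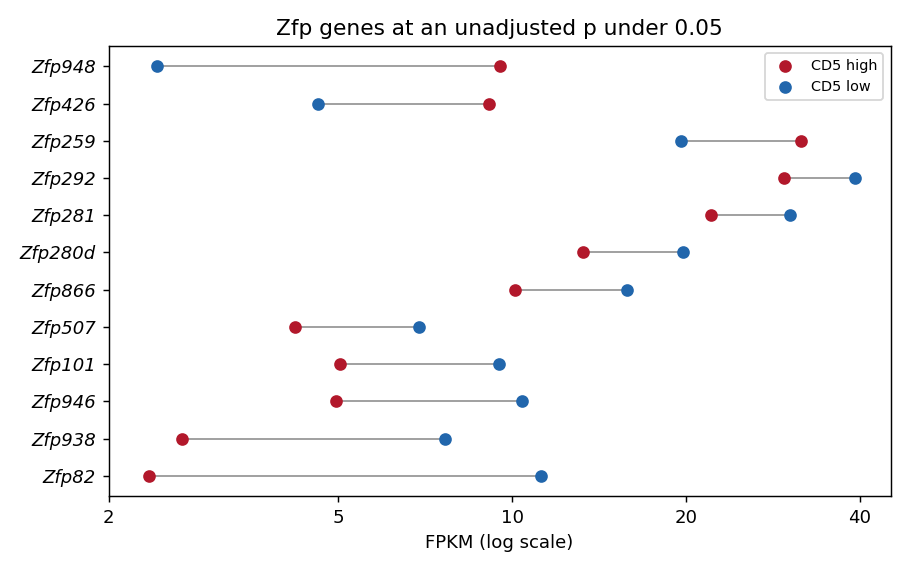
For the 12 Zfp genes at an unadjusted p under 0.05 in the authors' deposited table, red points give the FPKM value in CD5 high and blue points that in CD5 low, on a log scale. The red point lies right of the blue one for Zfp948, Zfp426 and Zfp259 and left of it for the other 9, and the widest gaps belong to genes whose lower value is under 6.82 FPKM.

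Some larger folds did not reach an unadjusted p of 0.05 in the authors' deposited table. Higher values in CD5 high were found for Zfp771 (12.1 FPKM, against 6.55 FPKM in CD5 low, q = 0.631), Zfp81 (11.3 FPKM, against 6.94 FPKM, q = 0.596), Zfp825 (12.3 FPKM, against 8.31 FPKM, q = 0.752) and Zfp821 (7.03 FPKM, against 4.77 FPKM, q = 0.753). Of these, Zfp771 and Zfp821 were under the floor of 6.82 FPKM in CD5 low, so their folds are in part set by it. Zfp825 shares 27.6% of its 50-base words with other genes. Lower values were found for Zfp672 (9.89 FPKM, against 18.3 FPKM in CD5 low, q = 0.699) and Zfp952 (6.83 FPKM, against 11.1 FPKM, q = 0.510) in the same table. The 1.85-fold difference of Zfp672 thus had a larger q than the 1.33-fold difference of Zfp292.

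Both main protein classes had more members lower than higher in CD5 high. The 50 KRAB members had a median log2 fold change of -0.21, with 31 lower and 19 higher in CD5 high, and medians of 9.58 FPKM in CD5 high and 10.3 FPKM in CD5 low. The 59 C2H2 members without the box had a median of -0.08, with 33 lower and 26 higher, and medians of 13.3 FPKM in CD5 high and 14.1 FPKM in CD5 low. The lower members were 62% of the KRAB class and 55.9% of those without the box, against 50.9% of all tested genes. An unadjusted p under 0.05 in the authors' deposited table was reached by 7 KRAB members, 5 lower and 2 higher, and by 4 members without the box, all lower. These are 14% and 6.78% of the classes, around the 10.3% of all tested genes, and 6 of the 7 KRAB genes were under the floor in 1 group and entered the table through the other. Among the 38 KRAB members above the floor in both groups, the median log2 fold change was -0.19 and 1 reached that p (2.63%). Among the 50 such members without the box the median was -0.10 and 3 reached it (6%). Of all tested genes above the floor in both groups, 8.24% reached that p. The median absolute log2 fold change was 0.37 in the KRAB class and 0.21 in the members without the box. The difference between the classes was not tested, and the classes also differ in level. Split by the number of C2H2 fingers, the median log2 fold change was -0.15 for 23 members with 1 to 4 fingers, -0.11 for 42 with 5 to 9 and -0.15 for 44 with 10 or more, so no order with finger number was seen.

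**Figure D4:**
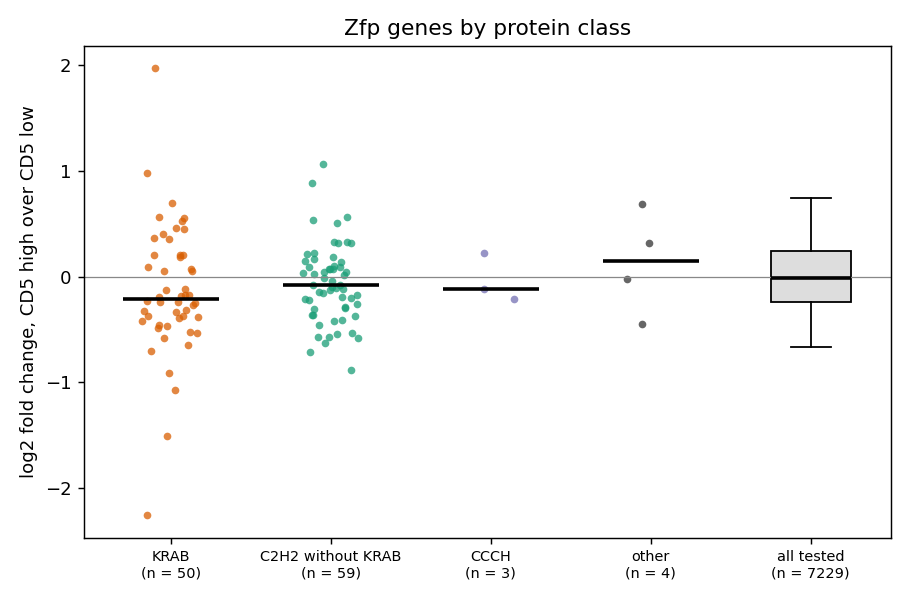
Points give the log2 fold change, CD5 high over CD5 low, of each Zfp gene by protein class, with a black line at the class median. The box gives all tested genes with a finite fold (quartiles, whiskers at the 5th and 95th percentiles). The KRAB median lies at -0.21 and that of the C2H2 genes without the box at -0.08, and both classes overlap the box over most of their range.

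The direction of the values was also compared among neighbouring Zfp genes. The members lie on 20 chromosomes, and 5 runs hold at least 3 members each, with 24 members in all. Within a run, each gap from the end of a member to the start of the next is at most 250 kb. Every one of the 5 runs held members in both directions, though some of these signs rest on small values. The only higher member of the run on chromosome 6 stood at 0.07. No member passed q under 0.05, so the signs do not show that neighbours differ. On chromosome 17, the run from 21383748 to 21588682 (mm10) reads, in gene order, Zfp677 (log2 fold change -0.46), Zfp51 (-0.47), Zfp53 (0.05), Zfp52 (0.55) and Zfp948 (1.97). A second run on chromosome 17, from 32765497 to 33631714, has 8 members, 6 of them lower in CD5 high, with a median of -0.26. On chromosome 7, from 30056034 to 30169727, Zfp82 (-2.26) stands beside Zfp566 (0.36), Zfp260 (-0.10) and Zfp146 (-0.04). The runs on chromosomes 6 (4 members) and 8 (3 members) had medians of -0.28 and -0.24.

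**Figure D5:**
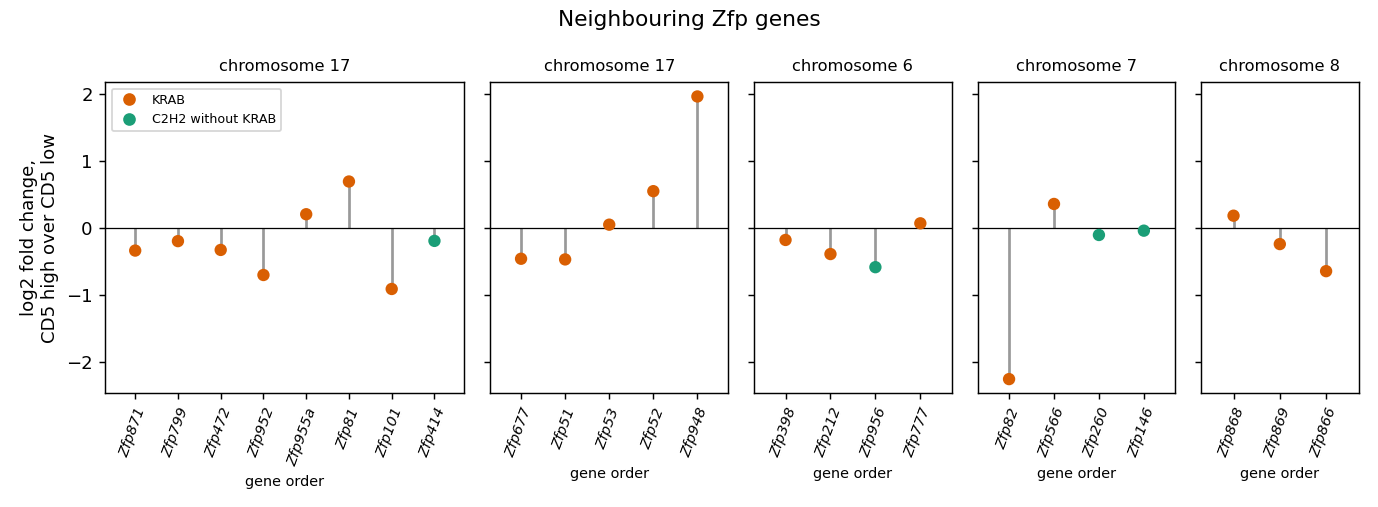
Each panel is a run of neighbouring Zfp genes in genomic order, with the log2 fold change, CD5 high over CD5 low, upwards. Orange points are KRAB members and green points C2H2 members without the box. Zfp82 and Zfp948 stand out from their neighbours, and every panel has points on both sides of 0.

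A promoter window of 250 bases before to 50 after the gene start was found in RefSeq (GRCm38.p6) for 100 of the 116 members. The median number of CpG pairs in the window was 16 over the Zfp genes, 22 over the 5442 tested genes with a window and 7 over all 27025 promoters. The CCAAT box (letters CCAAT, either strand) was in 47.0% of the Zfp windows, in 38.9% of those of tested genes and in 37.9% of all. The GC box (GGGCGG, either strand) was in 58.0% of the Zfp windows, 66.9% of those of tested genes and 35.9% of all, and the TATA box (TATAAA, either strand) in 5 of 100, against 6.91% and 14.2%. These matches are descriptions of the letters in the windows.

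Related zinc finger families had medians on both sides of that of the Zfp genes. In the BTB family, transcription factors that pair zinc fingers with a BTB domain, 10 of 18 tested Zbtb genes were higher and 8 lower in CD5 high (median log2 fold change 0.03). None passed q under 0.05, and Zbtb37 (2.89 FPKM in CD5 high, 8.78 FPKM in CD5 low, q = 0.124), Zbtb18 (7.68 and 13.6 FPKM, q = 0.311) and Zbtb24 (5.18 and 10.2 FPKM, q = 0.398) had an unadjusted p under 0.05 in the authors' deposited table. These are 3 of the 18, where 10.3% of all tested genes reached that p in either direction. Of 14 Zc3h genes 6 were higher and 8 lower (median -0.04), of 7 Klf genes 2 were higher and 5 lower (-0.13), and of 6 Zscan and Zkscan genes 3 were higher and 3 lower (-0.02), with Zkscan14 at 5.41 FPKM in CD5 high and 12.1 FPKM in CD5 low (q = 0.364 in the authors' deposited table). Klf2, which keeps T cells quiescent and recirculating, had 332 FPKM in CD5 high and 441 FPKM in CD5 low (q = 0.379 in the authors' deposited table). The 5 Zmym genes had a median of -0.45, with 4 lower, Zmym2 among them (17.4 FPKM in CD5 high, 23.8 FPKM in CD5 low, q = 0.440 in the authors' deposited table), and the 6 Zfand genes one of -0.04. Of 4 tested Ikzf genes 2 were higher and 2 lower (median 0.06). Among these families 1 gene passed q under 0.05, where 0.759% of all tested genes did. It was Ikzf2, which encodes Helios, with 36.3 FPKM in CD5 high and 16.6 FPKM in CD5 low (q = 0.0110 in the authors' deposited table).

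The labels were checked on marker genes. Cd5 had 206 FPKM in CD5 high and 45.4 FPKM in CD5 low, in the direction of the sort (q = 0.0110 in the authors' deposited table). Of 6 T cell markers 5 were tested, at 3130 FPKM summed in CD5 high and 2954 FPKM in CD5 low, and no CD8 marker was among the tested genes. Other cells' markers differed between the groups: 7 of 8 macrophage and dendritic cell genes were lower in CD5 high (634 FPKM summed, against 1234 FPKM in CD5 low), with Fcer1g listed at 0 in CD5 high. The 5 tested endocrine markers summed to 2794 FPKM in CD5 high and 321 FPKM in CD5 low, with 3 higher and 2 lower in CD5 high. Ins2 made up most of that sum, with 2395 FPKM in CD5 high and 26.7 FPKM in CD5 low, while Sst had 6.86 FPKM in CD5 high and 263 FPKM in CD5 low. In turn, 10 of 11 exocrine markers were lower in CD5 high (1101 FPKM summed, against 1288 FPKM). The 3 tested regulatory T cell markers were higher in CD5 high (321 FPKM summed, against 150 FPKM). Ikzf2 and Ctla4 passed q under 0.05, and Foxp3 did not, with 12.3 FPKM, against 1.10 FPKM in CD5 low (q = 0.298 in the authors' deposited table). Of 3 listed NK cell markers only Tyrobp was tested, with 3.94 FPKM in CD5 high and 21.8 FPKM in CD5 low (q = 0.480 in the authors' deposited table). A difference in NK cells cannot be read from this 1 gene, since Ncr1 and Klrb1c were not among the tested genes. The tested markers of B cells (Cd79b, 1 of 4) and endothelial and stromal cells (Pecam1, 1 of 4) had 14.0 and 16.6 FPKM in CD5 high and 10.96 and 21.3 FPKM in CD5 low. The part of these cells in the values of the Zfp genes was not tested, and fewer cells of a type and less RNA per cell cannot be told apart in bulk libraries.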

How the data were processed

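RNA was sequenced from 2 libraries of CD5 high and 2 of CD5 low effector T cells. Libraries were Nextera XT from amplified cDNA, per the labels' protocols, and this kit does not mark strand. TopHat 1.0.0, Cufflinks and the build mm10 are named in the submitters' processing notes, without a Cufflinks version or an annotation. The authors deposited 1 FPKM value per group, and per gene a log2 fold change, p-value, q-value and test score, and per the file headers the layout is that of a Cuffdiff gene test. Which libraries entered each value and how they were scaled is not stated. The deposited log2 fold change equals that of the FPKM values to within 5.1e-05, so no pseudocount had been added.

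Of 7404 rows, 7252 had the status OK, and 7244 of these named a single gene. The planned limma fit on single libraries was not possible, since no values per library were used here, so the authors' test is described, with calls at q under 0.05. The depth of the libraries is unknown. Proteins were translated with Biopython 1.88, C2H2 and CCCH fingers and KRAB boxes were found by pattern, and 50-base words were matched to all GENCODE M21 transcripts. Counts and the adjustment were tested on simulated data (Python 3.11.15, numpy 2.4.6, pandas 2.3.3). Members and gene lists were chosen with earlier results of these data known. The Zfp genes named are those at an unadjusted p under 0.05, the 10 most abundant, the 8 with the largest and the 8 with the smallest fold change, and those in the role lists. Neighbours in 2 gene runs, Bcl2, Myc, Ins2 and Sst were named after their values were seen.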

Additional observations from a re-analysis of the deposited data

How the results depend on the processing

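The count of Zfp genes past the authors' threshold was 0 as reported, with q under 0.1, with p-values adjusted over genes of at least 20 FPKM mean, and with marker genes of other cell types left out. The count at an unadjusted p under 0.05 was 12, and it was 2 at p under 0.01 and 3 among members of at least 20 FPKM mean. The count at 1.5-fold was 15, and it was 5 at 2-fold and 1 among members of at least 20 FPKM mean, where fewer genes are counted. A pseudocount of 1 FPKM gave 14, and quantile normalization and centring on the median of all tested genes gave 15 each. The median log2 fold change of -0.12 ranged from -0.11 to -0.15 over 8 alternatives, and those of the KRAB, other C2H2 and CCCH classes moved by less than 0.05. Among these, the alternatives with members above the table's floor in both groups, overall and by class, and with little shared sequence, and the scaled counts of lower members (69 after quantile normalization, 68 after centring, against 68), were chosen after seeing the data. Of the 47 named members, 0 changed direction with the pseudocount or either scaling. No paired analysis was possible because single libraries have no values of their own, although the numbers 3 and 4 recur in both groups' titles, and for the same reason leaving out single libraries was not run. Depth is unknown, and small differences in genes under 10 FPKM cannot be judged from these values.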
